A study of Mus musculus with 4 samples.

Results

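The Ms4a cluster is a run of neighbouring genes on mouse chromosome 19 that encode small membrane proteins. It is described here through 9 members, Ms4a3, Ms4a4a, Ms4a4b, Ms4a4c, Ms4a6b, Ms4a6c, Ms4a6d, Ms4a7 and Ms4a8a, taken by gene symbol from the 51826 features of the deposited table. The cells were mouse bone marrow cells that lacked lineage markers, carried c-kit (Lin-c-kit+) and were transduced with MLL-AF9, a fusion oncoprotein of acute myeloid leukaemia. Total RNA was sequenced from 2 Elovl6 KO samples and 2 WT samples, all labelled 2Week, and MLL-AF9 was carried by both genotypes. Elovl6 encodes an enzyme that lengthens fatty acids. How the knockout was made, in which cells it acts and the age of the animals are not stated in the labels. No label states that replicates were separate animals or cultures. The p-values therefore measure only how far these libraries spread, which may be technical.

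Ms4a proteins cross the membrane several times, with both ends inside the cell, and many act beside immune receptors rather than as receptors themselves. The family includes CD20 (Ms4a1) of B cells and the beta chain of the high-affinity IgE receptor (Ms4a2) of mast cells. Ms4a3 marks granulocyte-monocyte progenitors in the mouse, and several Ms4a4, Ms4a6 and Ms4a7 genes are known from monocytes and macrophages.

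The libraries held 8986502 and 9699502 gene counts in KO and 9883596 and 11941588 in WT. Elovl6 had 17 and 34 counts in KO, against 1290 and 1673 in WT, which matched the labels. Kit, the gene of c-kit, stood at 139 and 111 CPM (counts per 1000000 counts of a library) in KO and at 139.8 and 130.4 CPM in WT. Of the lineage genes, Cd3e of T cells had no count in any library, but others had counts. Thy1 of T cells had 241 and 441 in KO and 156 and 138 in WT. Cd79b of B cells had 78 and 52 in KO and 151 and 185 in WT. Of the genes tested, 2.8% were called different between KO and WT at an adjusted p under 0.05 (329 of 11738).

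The copies differ in how much sequence they share, which bears on how reads could be placed. Coding identity was 91.7% between Ms4a4b and Ms4a4c, 85.4% between Ms4a6b and Ms4a6c, 81.2% between Ms4a6b and Ms4a6d and 79.0% between Ms4a6c and Ms4a6d. It was lowest, at 59.1%, between Ms4a3 and Ms4a6c. The longest run of identical coding bases in any pair was 127 bases, at coding positions 321 to 447 of both Ms4a4b and Ms4a4c, and a read inside it cannot be placed on one of them. In mm10 it spans an intron on the plus strand in both genes, at chr19:11459161-11461265 in Ms4a4b and chr19:11419001-11421266 in Ms4a4c.
Ms4a4b and Ms4a4c: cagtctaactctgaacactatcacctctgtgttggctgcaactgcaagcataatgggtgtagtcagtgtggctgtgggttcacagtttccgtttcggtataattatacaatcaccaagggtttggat

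The Ms4a6 genes shared shorter runs. The longest between Ms4a6b and Ms4a6d was 81 bases, and that between Ms4a6c and Ms4a6d was 44 bases. The run between Ms4a6b and Ms4a6c was 55 bases, in 1 exon at coding positions 389 to 443. It is shown beside the same positions of Ms4a6d, with the 15 bases at which Ms4a6d differs from the other two in capitals. The stretches are at chr19:11526749-11526803 (plus strand) for Ms4a6b, chr19:11478217-11478271 (plus strand) for Ms4a6c and chr19:11590093-11590147 (minus strand) for Ms4a6d in mm10.
Ms4a6b: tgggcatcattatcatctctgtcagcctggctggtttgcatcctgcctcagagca
Ms4a6c: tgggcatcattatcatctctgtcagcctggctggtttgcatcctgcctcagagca
Ms4a6d: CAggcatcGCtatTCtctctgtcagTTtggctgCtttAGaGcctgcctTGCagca

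The members cover 573 kb, from 11067471 to 11640851 on chromosome 19 of mm10, and their levels were far apart. Ms4a3, at one edge of the cluster, had 238 CPM per kilobase of exon over all 4 libraries, rank 154 of the 17852 genes with a count. On the same scale Ms4a6c had 9.61, Ms4a6d 4.35, Ms4a4c 1.51, Ms4a6b 0.979, Ms4a4a 0.364, Ms4a4b 0.305 and Ms4a7 0.0433 CPM per kilobase, and Ms4a8a had no count. The mean of Ms4a3 was 24.7 times that of Ms4a6c, the next gene in this order. Each gene stood clear of the next in all 4 libraries, except Ms4a4a and Ms4a4b, whose ranges overlapped. Ms4a3 supplied 94.5% and 88.3% of all member counts in the KO libraries and 92.6% and 93.9% in the WT libraries.

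**Figure D1:**
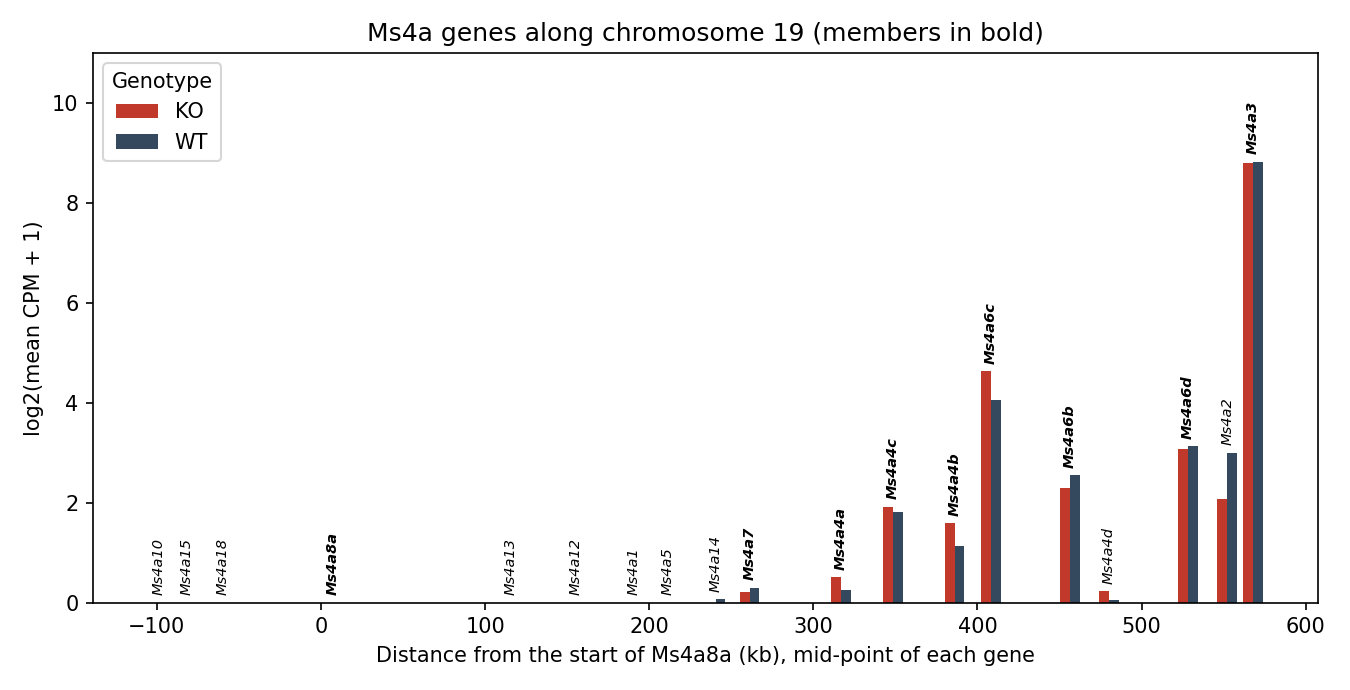
Level of each Ms4a gene along chromosome 19, as log2(mean CPM + 1) over 2 libraries per genotype, against the distance of the gene's mid-point from the start of Ms4a8a in kilobases; bar width is not gene length. Counts gather at the Ms4a3 end, and Ms4a8a and 7 Ms4a genes that are not members have no count.

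No member was called different between KO and WT. In exon counts 6 of 9 members passed the filter on low counts, and 0 of 6 had an adjusted p under 0.05 in edgeR's quasi-likelihood test with Benjamini-Hochberg adjustment over all genes. None of the 6 had an unadjusted p under 0.05, against 20.8% of all genes tested, and DESeq2 called none, against 4.12% of all genes. The authors' deposited table, which holds their own test, had a corrected p under 0.05 for 0 of 9 members and for 888 of 51826 features. The median log2 fold change, KO over WT, was 0.06 over the 6 members, with 3 above 0 and 3 below, and -0.0037 over all genes tested.

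Ms4a3 (ENSMUSG00000024681; minus strand, 11629496 to 11640851), the progenitor marker of the cluster, is reported for the human protein to bind the phosphatase CDKN3 and to take part in uptake of the cytokine receptor chain CSF2RB. Its counts were 4449 and 3838 in KO and 4025 and 5876 in WT, or 494 and 395 CPM in KO and 409 and 492 CPM in WT. The KO libraries reached both the highest and the lowest value, so the groups overlapped. The means were 444 ± 70.3 CPM in KO and 451 ± 58.2 CPM in WT (SD, n = 2 each). The log2 fold change, KO over WT, was -0.02, with a standard error (SE) of 0.12 and a 95% interval of -0.31 to 0.27 (edgeR adjusted p = 0.939). This is a 0.986-fold level, with an interval of 0.805 to 1.21.

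The other readouts of Ms4a3 gave values on the same order. Every exon read was uniquely placed, and no stretch of 50 bases in its transcripts occurred in another gene's transcripts. Reads across exon junctions numbered 1717 and 1396 in KO and 1583 and 2301 in WT. Intron reads numbered 2069 and 1783 in KO and 1546 and 2395 in WT. Their log2 fold change was 0.17 (SE 0.15; 95% interval -0.17 to 0.50; edgeR adjusted p = 0.578), and the groups overlapped here too.

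Ms4a6c (ENSMUSG00000079419; plus strand, 11469366 to 11482192), a gene of mouse monocytes and macrophages, was the second in level, and its KO replicates differed. Its counts were 141 and 311 in KO and 158 and 180 in WT, or 15.7 and 32.0 CPM in KO and 16.1 and 15.1 CPM in WT. KO replicate 2 stood above the other 3 libraries, at 2.04 times KO replicate 1, and KO replicate 1 lay between the WT libraries. The means were 23.8 ± 11.5 CPM in KO and 15.6 ± 0.712 CPM in WT (SD, n = 2 each). The log2 fold change was 0.62 (SE 0.30; 95% interval -0.09 to 1.33; edgeR adjusted p = 0.298), a 1.54-fold level with an interval of 0.940 to 2.52.

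The value of Ms4a6c rested on KO replicate 2. Without that library the log2 fold change was 0.01 (SE 0.17; edgeR adjusted p = 0.990), where 2.55% of all genes were called. Without KO replicate 1 it was 1.04 (SE 0.14; edgeR adjusted p = 0.000975), where 12.0% of all genes were called. With no filter on low counts the same value of 0.62 had an edgeR adjusted p of 0.000647, where 9.39% of all genes were called. The lone KO library in the first 2 of these fits was assumed to vary like the WT libraries.

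**Figure D2:**
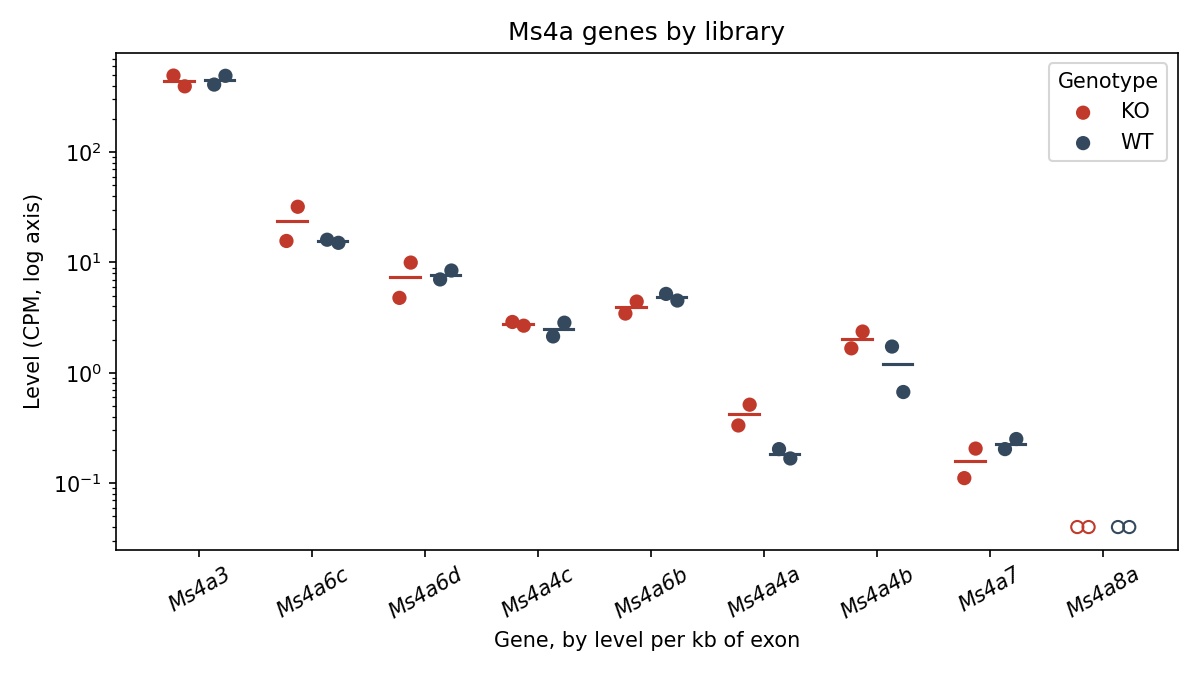
CPM of each member on a log axis, 1 point per library and a line at each group mean, with genes in order of level per kilobase; open circles mark the 0 counts of Ms4a8a. KO replicate 2 of Ms4a6c, at 32.0 CPM, sits above KO replicate 1 at 15.7 CPM and the WT libraries at 16.1 and 15.1 CPM.

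Unique placement set Ms4a6c apart from the other members. Uniquely placed exon reads numbered 140 and 310 in KO and 157 and 179 in WT, while total exon reads numbered 246 and 561 in KO and 270 and 357 in WT. The unique share was 56.9% and 55.3% in the KO libraries and 58.1% and 50.1% in the WT libraries, against 83.0% to 83.5% for all genes of a library together. It was 95.5% for Ms4a4b, 97.8% for Ms4a6b, 99.1% for Ms4a4c and 99.7% for Ms4a6d over all libraries, and 100% for Ms4a3, Ms4a4a and Ms4a7. The deposited counts of Ms4a6c, at 141 and 311 in KO and 158 and 180 in WT, were close to its unique exon reads, so its level per kilobase leaves out most of its non-unique reads, whichever gene they came from. The authors' RPKM (reads scaled by exon length and library size), which follows total exon reads, was 6.48 and 13.5 in KO and 6.33 and 7.05 in WT for Ms4a6c.

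Ms4a6c also stood apart in its overlap with another gene. Of the 50-base stretches in its transcripts, 51.4% occurred in transcripts of another gene, 49.6% in BE692007 on the opposite strand and 5.85% in Ms4a6b. In GENCODE vM21, BE692007 (minus strand, 11470166 to 11484578) covers 1088 of the 2050 exon bases of Ms4a6c, or 53.1%. The deposited table lists BE692007 with 0 counts in every library, with 4 and 4 total exon reads in KO and with 1 and 0 in WT. No source used here says whether strand was used in the counting, so how reads were split where the 2 genes overlap is not known. Few total exon reads were credited to BE692007, beside 246 and 561 in KO and 270 and 357 in WT for Ms4a6c. The part of this overlap in the low unique share was not tested. Among the close copies, 8.19% of the 50-base stretches of Ms4a4c, 3.57% of Ms4a6b, 2.54% of Ms4a6d and 2.40% of Ms4a4b occurred in another gene.

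The choice of reads left the value of Ms4a6c much the same. Its log2 fold change was 0.62 in unique exon reads and 0.57 in total exon reads. Junction reads numbered 65 and 140 in KO and 56 and 67 in WT, again with KO replicate 2 highest. Its introns held only 5 and 8 reads in KO and 2 and 7 in WT, 2.72% of the reads of the gene, and were not tested.

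**Figure D3:**
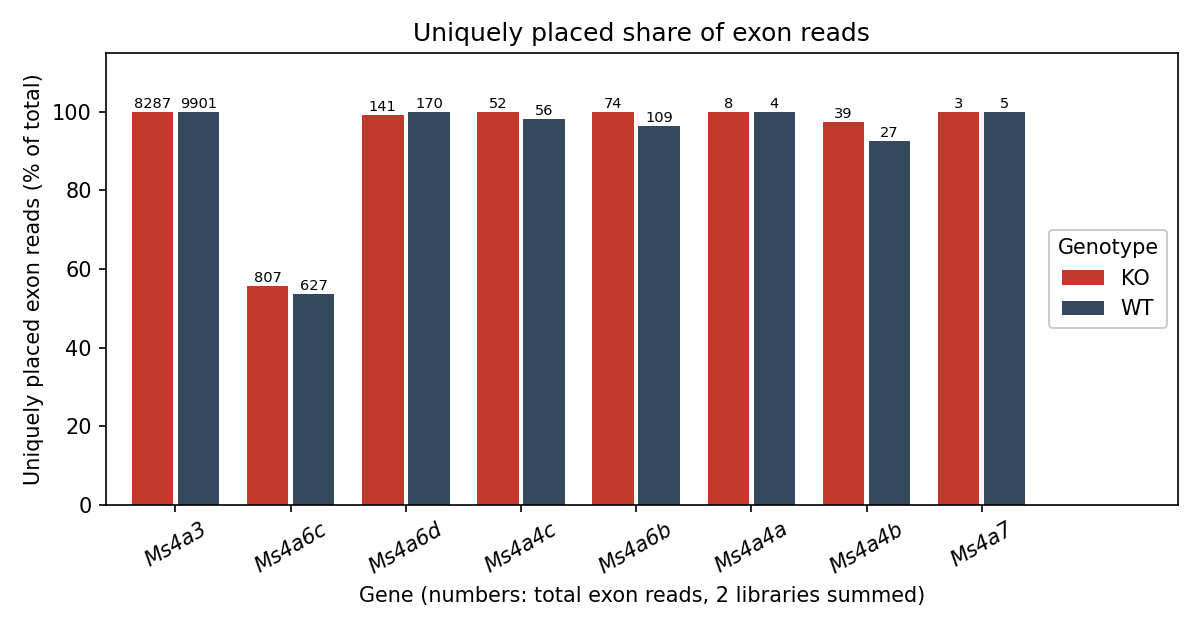
Uniquely placed exon reads as a percentage of total exon reads for the 8 members with a read, summed over 2 libraries per genotype, with the total exon reads above each bar. Ms4a6c stands at 54.8% over all 4 libraries, and the next lowest member, Ms4a4b, at 95.5%.

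Ms4a6d (ENSMUSG00000024679; minus strand, 11586604 to 11604849), a relative of Ms4a6c expressed in mouse macrophages, had 43 and 97 counts in KO and 69 and 101 in WT. KO replicate 1 was the lowest library at 4.78 CPM and KO replicate 2 the highest at 9.97 CPM, with the WT libraries between them at 7.02 and 8.45 CPM. The means were 7.37 ± 3.68 CPM in KO and 7.74 ± 1.01 CPM in WT (SD, n = 2 each). The log2 fold change was -0.07 (SE 0.34; 95% interval -0.86 to 0.73; edgeR adjusted p = 0.932). As in Ms4a6c, KO replicate 2 exceeded KO replicate 1, by 2.09 times. Its introns held 35 and 69 reads in KO and 45 and 51 in WT, with the same order of the KO libraries (log2 fold change 0.28; SE 0.29; edgeR adjusted p = 0.657).

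Ms4a6b (ENSMUSG00000024677; plus strand, 11516512 to 11531256), known from mouse T cells and myeloid cells, had 31 and 43 counts in KO and 51 and 54 in WT, or 3.44 and 4.42 CPM in KO and 5.19 and 4.52 CPM in WT. Both KO libraries lay below both WT libraries, and it was the sole tested member whose exon groups did not overlap. Among all genes tested 53.8% did not overlap, 27.0% with KO below. The log2 fold change was -0.30 (SE 0.26; 95% interval -0.91 to 0.32; edgeR adjusted p = 0.570). Its introns, with 25 and 49 reads in KO and 30 and 40 in WT, overlapped (log2 fold change 0.25; SE 0.31; edgeR adjusted p = 0.724).

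Ms4a4b (ENSMUSG00000056290; plus strand, 11443553 to 11463549) encodes a protein of mouse T cells reported to associate with the co-stimulatory receptor GITR. It had 15 and 23 counts in KO and 17 and 8 in WT, or 1.67 and 2.36 CPM in KO and 1.73 and 0.670 CPM in WT. WT replicate 2 was the low library, and the groups overlapped. The log2 fold change was 0.79, with a 95% interval of -0.41 to 1.99 that ran from 0.750-fold to 3.98-fold (SE 0.51; edgeR adjusted p = 0.426). Without WT replicate 1 it was 1.57 and without WT replicate 2 it was 0.22. Introns held 19 and 33 reads in KO and 17 and 31 in WT (log2 fold change 0.29; SE 0.35; edgeR adjusted p = 0.706).

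Ms4a4c (ENSMUSG00000024675; plus strand, 11404770 to 11427246), the close copy of Ms4a4b and a gene of mouse myeloid cells, had 26 and 26 counts in KO and 21 and 34 in WT, or 2.89 and 2.67 CPM in KO and 2.14 and 2.85 CPM in WT. The groups overlapped, and the log2 fold change was 0.15 (SE 0.31; 95% interval -0.59 to 0.89; edgeR adjusted p = 0.833). It had more intron than exon reads, 39 and 96 in KO and 39 and 65 in WT. KO replicate 2 was again the highest intron library (log2 fold change 0.55; SE 0.36; edgeR adjusted p = 0.454). Without KO replicate 1 the intron value was 0.98 (edgeR adjusted p = 0.0342), where 1299 of 12938 genes were called.

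Ms4a4a (ENSMUSG00000101389; plus strand, 11375523 to 11392790) is the mouse counterpart of a human macrophage surface protein that associates with the beta-glucan receptor Dectin-1. Its exons held 3 and 5 counts in KO and 2 and 2 in WT, too few for the test. Both KO libraries lay above both WT libraries, as they did in 26.8% of the genes that were tested. The ratio of summed counts per library size was 2.33, with an exact interval of 0.623 to 10.6 that covers counting error only. KO lay above WT in its introns too, as in 26.3% of all genes tested in introns. The introns of Ms4a4a held 9 and 20 reads in KO and 3 and 7 in WT. Their log2 fold change was 1.68 (SE 0.56; 95% interval 0.39 to 2.98; unadjusted p = 0.0171 and adjusted p = 0.147 in edgeR's test). The interval of this value did not reach 0, and leaving out each library in turn gave 1.10 to 2.24.

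Ms4a7 (ENSMUSG00000024672; minus strand, 11321039 to 11336146), known from mouse macrophages and microglia, had 1 and 2 counts in KO and 2 and 3 in WT. Its ratio of summed counts per library size was 0.698, with an exact interval of 0.108 to 3.59. Ms4a8a (ENSMUSG00000024730; minus strand, 11067471 to 11081102), reported in mouse macrophages and epithelia, had no count in any library. With 3 counts as the limit that a count of 0 allows, its level was at most 0.308 to 0.333 CPM in the KO libraries and 0.251 to 0.305 CPM in the WT libraries. Intron reads numbered 2 and 0 in KO and 4 and 1 in WT for Ms4a7, and at most 1 in any library for Ms4a8a.

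In introns 6 members passed the filter, and 0 of 6 had an adjusted p under 0.05 in edgeR's test, against 4.81% of all genes (595 of 12359). Ms4a4a alone had an unadjusted p under 0.05, against 19.8% of all genes. The log2 fold change was above 0 in 6 of 6 members and in 51.1% of all genes, with a median of 0.29 over the members and 0.01 over all genes. In every one of these members except Ms4a3, KO replicate 2 had the highest intron CPM of the 4 libraries. Without KO replicate 2 the intron log2 fold changes of Ms4a4b, Ms4a4c, Ms4a6b and Ms4a6d were -0.062, -0.14, -0.22 and -0.19, below 0.

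**Figure D4:**
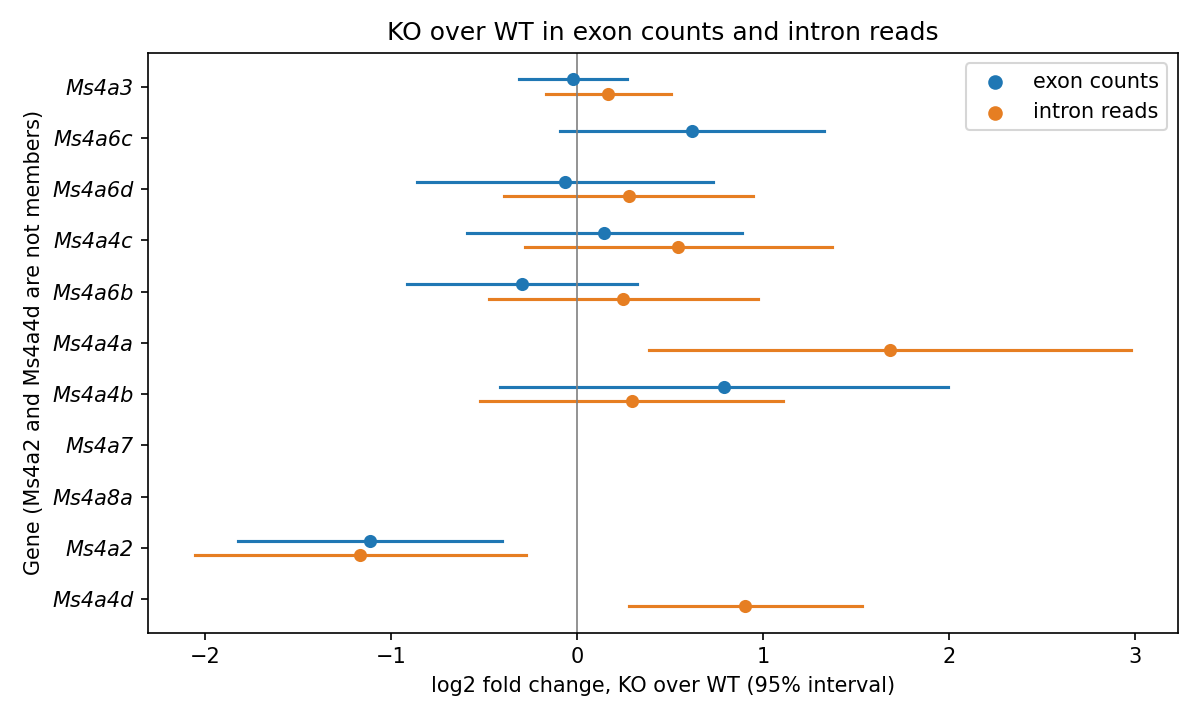
Log2 fold change, KO over WT, of exon counts and intron reads, with 95% intervals from edgeR's quasi-likelihood test, for the members and for Ms4a2 and Ms4a4d; a gene with no point was not tested. Of the members' intervals only that of Ms4a4a introns, 0.39 to 2.98, does not reach 0.

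Monocyte and macrophage marker genes were highest in the library in which Ms4a6c was highest. Of 21 such markers 19 were tested, and 4 were called higher and 0 lower in KO, against 1.82% of all genes called higher and 0.98% called lower. These were Lyz2, which encodes lysozyme, at 461 and 734 CPM in KO and 114 and 149 CPM in WT (log2 fold change 2.18; edgeR adjusted p = 0.00786), Cybb of the phagocyte oxidase (1.96; 0.00756), Lgals3, a galectin (1.497; 0.0355), and Vcan, a matrix proteoglycan (2.61; 0.0472). The median log2 fold change of the list was 1.00, and 0.54 without KO replicate 2. The list had 7 called higher without KO replicate 2, against 1.71% of all genes, and 16 without KO replicate 1, against 7.6%. Its summed level was 2699 and 3961 CPM in KO and 1819.7 and 1890.2 CPM in WT, none of its genes was at 0 in every library, and 18 of its 19 tested genes were higher in KO replicate 2 than in KO replicate 1. Set to the WT mean, this sum was 1.46 and 2.14 in the KO libraries, Ms4a6c was 1.01 and 2.05, and Ms4a6d was 0.617 and 1.29. The part of monocyte-like cells in the Ms4a6c value was not tested. In bulk samples more cells of a type and more RNA per cell cannot be told apart.

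Primary granule and progenitor markers, the genes that usually accompany Ms4a3, showed another order of the libraries. Of 15 tested, 0 were called lower and 1 higher in KO in edgeR's test, against 0.98% and 1.82% of all genes. The median log2 fold change of these markers was -0.20. Their summed level was 11449.5 and 8969 CPM in KO and 12659.9 and 12628 CPM in WT. Against the WT mean the KO libraries stood at 0.906 and 0.709, while Ms4a3 stood at 1.10 and 0.876. KO replicate 2 was the lowest library in both.

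Markers of other cell types were measured beside the members. For the counts of genes called below, 2.8% of all genes tested were called in either direction. B cell markers, for the cells of Ms4a1, summed to 14.9 and 11.002 CPM in KO and 24.8 and 29.96 CPM in WT, with 0 of 5 tested called. T and NK cell markers, for the cells in which Ms4a4b and Ms4a6b are also known, summed to 33.8 and 53.4 CPM in KO and 22.9 and 16.7 CPM in WT. Thy1 was 1 of 2 tested and was called higher, against 1.82% of all genes (log2 fold change 1.41; edgeR adjusted p = 0.0478), and Cd3e, Cd8a, Gzma and Ncr1 had no count. Mast cell and basophil markers summed to 122 and 107 CPM in KO and 161 and 140.4 CPM in WT, with 0 of 9 tested called. Eosinophil markers summed to 54.2 and 20.2 CPM in KO and 409.8 and 95.5 CPM in WT, with 0 of 7 called. Late neutrophil markers summed to 2349 and 934 CPM in KO and 995 and 1498 CPM in WT, with 1 of 11 tested, Stfa1, called lower, against 0.98% of all genes. Their median log2 fold change was 0.31 over all libraries. It was -0.45 without KO replicate 1 and 0.87 without KO replicate 2. Dendritic cell markers summed to 307 and 323 CPM in KO and 281 and 332 CPM in WT. Erythroid and megakaryocyte markers summed to 13.1 and 20.6 CPM in KO and 13.02 and 13.5 CPM in WT. None was called in either list. Median log2 fold changes were -1.14 for B cell, 0.89 for T and NK cell and -0.39 for mast cell and basophil markers. They were -2.63 for eosinophil, 0.04 for dendritic cell and -1.09 for erythroid and megakaryocyte markers. Of the tested eosinophil markers, 0 of 7 had a value above 0.

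Genes reported as partners of Ms4a proteins, or in signalling beside them, were measured in 17 cases and tested in 16. Of these, 1 was called higher in KO and 0 lower, against 1.82% and 0.98% of all genes, with a median log2 fold change of 0.10. Without KO replicate 2 the list had 0 called higher, against 1.71% of all genes, and without KO replicate 1 it had 7, against 7.6%. It was Fcgr3, a low-affinity IgG receptor, at 93.0 and 114 CPM in KO and 68.5 and 72.2 CPM in WT (log2 fold change 0.56; edgeR adjusted p = 0.0463). Clec7a, the gene of Dectin-1 and the partner reported for human MS4A4A, stood at 30.1 and 51.0 CPM in KO and 15.5 and 21.1 CPM in WT (1.14; edgeR adjusted p = 0.0694). Csf2rb, the chain linked to human MS4A3, stood at 281 and 374 CPM in KO and 239 and 225 CPM in WT (0.50; edgeR adjusted p = 0.0876). Trem2, a lipid-sensing receptor of macrophages, stood at 5.11 and 9.77 CPM in KO and 1.83 and 3.18 CPM in WT (1.55; edgeR adjusted p = 0.0959).

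Of the 10 other Ms4a genes in the table, 7 had no count in any library, Ms4a1 among them. Ms4a2, the IgE receptor beta chain, had 2.89 and 3.50 CPM in KO and 8.44 and 5.52 CPM in WT. Its KO libraries both lay below both WT libraries, as in 27.0% of all genes tested. Its log2 fold change was -1.11 (SE 0.30; 95% interval -1.82 to -0.41; edgeR adjusted p = 0.102), and the authors' deposited table gave a corrected p of 0.000724. Ms4a4d had 3 and 0 exon counts in KO and 0 and 1 in WT, but 51 and 73 intron reads in KO and 26 and 49 in WT (log2 fold change 0.91; SE 0.27; edgeR adjusted p = 0.111). Ms4a14 had 1 count, in WT replicate 1.

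Genes around the cluster were not called either. Within 1 Mb on both sides 105 other genes lie, of which 29 were tested. Of these, 0 were called in edgeR's test, against 2.8% of all genes. The median log2 fold change of the 29 was -0.02. The smallest p-values belonged to Fads1, a fatty acid desaturase (0.45; edgeR adjusted p = 0.0708), Glyat (0.90; 0.0760), Mpeg1, a macrophage perforin (1.00; 0.0792), and Slc15a3 (1.26; 0.0797).

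Over the 4 libraries, the genes whose centred log2 CPM was most like that of Ms4a3 were Zfp952, Asah2, Zhx2, Stk26 and Rpp40, with root mean square differences of 0.0183 to 0.0361. The median over 11062 genes was 0.189, and Ms4a4c, the nearest member, stood at 0.127. For Ms4a6c they were Ccdc85a, Sdc3, Tmem51, Fosl1 and Apba1, at 0.0501 to 0.0622 against a median of 0.459. Each was highest in KO replicate 2, as Ms4a6c was. The genes of both sets were chosen for this likeness, so their small differences and shared order of libraries follow from the choice. Ms4a6d was the nearest member to Ms4a6c, at 0.358. With 4 libraries, many genes can have a like pattern.

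The bases before the starts of the 2 most abundant members are shown because these genes had unlike levels and orders of libraries. Of the members, 8 were in the RefSeq promoter table (GRCm38.p6, the build called mm10). The 250 bases before each start were searched on both strands for the letters GAGGAAG (PU.1), TTGCNNAA (C/EBP), TGTGGT (RUNX) and TATAAA (the box bound by TBP). Of all 32841 promoters in that table, 10.6%, 9.57%, 14.05% and 12.4% hold them, in that order. Neither promoter shown holds any of these letters, so none are in capitals. Among the others Ms4a4b holds TATAAA, 140 bases before its RefSeq start. Ms4a4c holds TGTGGT on the opposite strand, 211 bases before its RefSeq start. The Ms4a4c stretch, chr19:11407411-11407660, lies inside the span of 11404770 to 11427246 given above for this gene, so its RefSeq start is a later one. The stretches are chr19:11640852-11641101 on the minus strand for Ms4a3 and chr19:11469118-11469367 on the plus strand for Ms4a6c.
Ms4a3: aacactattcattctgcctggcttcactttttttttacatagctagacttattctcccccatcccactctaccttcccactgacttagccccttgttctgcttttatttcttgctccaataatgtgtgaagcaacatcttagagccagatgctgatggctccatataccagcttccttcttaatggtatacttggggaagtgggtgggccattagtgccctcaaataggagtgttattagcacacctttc
Ms4a6c: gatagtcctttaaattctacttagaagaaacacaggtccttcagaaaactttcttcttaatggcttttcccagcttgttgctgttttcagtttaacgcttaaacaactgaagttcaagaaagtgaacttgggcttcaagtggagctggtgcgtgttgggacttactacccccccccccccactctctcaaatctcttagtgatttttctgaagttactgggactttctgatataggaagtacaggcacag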

How the data were processed

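Trizol was used for RNA extraction and an NEBNext Ultra Directional kit for library preparation, per the labels' protocols. The submitters' processing notes name mm10. The aligner, the counter and whether strand was used were not stated. The deposited table gives counts for each gene, as whole numbers, with further columns of unique exon, total exon, junction and intron reads, per the file headers. Its main counts lie between the unique and total exon reads. Its RPKM values follow total exon reads, and its p-values, corrected p-values and signed fold change (a score, positive for higher in KO) come from the authors' own test, per the file headers. The titles of the samples gave genotype and replicate number.

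Main counts and intron reads passed filterByExpr at a minimum count of 10 and a minimum total of 15, were given TMM factors and were tested with edgeR 4.0.16 in R 4.3.3 (quasi-likelihood test, all 4 libraries, no replicate block, Benjamini-Hochberg adjustment over 11738 and 12359 genes, threshold 0.05). CPM uses TMM-scaled library sizes, and 95% intervals come from the fitted standard errors. At these depths 3 counts equal 0.251 to 0.333 CPM, and count intervals (Clopper-Pearson) cover counting error only, since there are no molecular identifiers. The spread between replicates exceeded sampling noise (chi-square per degree of freedom 6.54 in KO and 4.42 in WT), so none was merged. Alternatives were RLE scaling, DESeq2 1.42.0, no filter, a mean of at least 1 CPM, unique or total exon reads, a replicate block, and each library left out.

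On counts simulated for the exon comparison (5 draws, 11597 genes on average), the test recovered 55.8% of 1.5-fold, 80.0% of 2-fold and 93.6% of 4-fold changes, and 11.9% of its calls were false. On simulated intron reads (12094 genes) these were 35.2%, 72.5% and 93.6%, with 8.14% false. The rates were not split by count level, so they do not show which changes could be seen in the members. Each false share was above the adjusted p threshold, so more of the calls reported here may be false than that threshold allows.

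Positions, strands, overlaps and 50-base stretches came from GENCODE vM21. The genes named are the members, all other Ms4a genes, up to 4 genes with the smallest p per list and within 1 Mb, the 5 nearest in pattern to Ms4a3 and to Ms4a6c, Elovl6, and Kit, which was added after its values could be seen. The members, the lists and this rule were chosen with earlier results of these data known. A few genes of these lists are not reported here.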

Additional observations from a re-analysis of the deposited data

How the results depend on the processing

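The count of all genes called (329) was 1677 with no filter, 875 with the replicate block, and between 14 (without WT replicate 1) and 1449 (without KO replicate 1) when a library was left out. Of the members, 0 were called, against 1 (Ms4a6c) with no filter, and 0 to 1 (Ms4a6c, without KO replicate 1) with a library left out. In introns 595 genes were called, 1430 with the replicate block and 287 to 1299 with a library left out. Of the members in introns 0 were called, against 1 with the block (Ms4a4a, 1.70, edgeR adjusted p = 0.0470, where 11.6% of all genes were called) and 0 to 1 (Ms4a4c, without KO replicate 1) with a library left out. Same-numbered libraries deviated together little (correlation 0.09 over 11738 genes), but 2 pairs cannot show whether they belong together. The labels name no pairing, so the numbers were not taken as pairs. Of 96 member values under alternatives, 10 changed sign, all on leaving out a library. Their ranges were -0.19 to 0.13 (Ms4a3), -0.038 to 0.37 (Ms4a4c) and -0.70 to 0.36 (Ms4a6d) in exons, and -0.037 to 0.35 (Ms4a3), -0.062 to 0.62 (Ms4a4b), -0.14 to 0.98 (Ms4a4c), -0.22 to 0.58 (Ms4a6b) and -0.19 to 0.61 (Ms4a6d) in introns. None of these 10 was called. The other ranges were 0.22 to 1.57 (Ms4a4b), -0.49 to -0.13 (Ms4a6b) and 0.01 to 1.04 (Ms4a6c) in exons. With 2 libraries a group, and under 60 counts a library for Ms4a4b, Ms4a4c and Ms4a6b, the intervals above set what could be seen. The cause of these shifts was not tested.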
